A study of Homo sapiens with 9 samples.

Results

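GATA3 and 9 other genes that mark or control the trophoblast lineage were followed in human embryonic stem cells grown with butyrate and DZNep. The 10 genes were GATA3, GATA2, CDX2, TFAP2A, TFAP2C, HAND1, MSX2, ELF5, CGA and CYP19A1, taken by name from the array annotation. They had 28 of the 54613 probe sets on the array, and 10 of its 19775 annotated genes. The genes were chosen by function and by the measured signals of GATA3 in treated and untreated HSF-6(8) cells on these same arrays. Values of the 10 genes in that comparison are therefore given as a description, without a test.

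HSF-6 is a human embryonic stem cell line, and the labels name its sublines HSF-6(8) and HSF-6(S9). Each of 3 groups had 3 arrays of total RNA, 9 in all. HSF-6(8) was grown either as the control, without agents, or with butyrate plus DZNep, and HSF-6(S9) was grown with butyrate plus DZNep. The labels give 11 passages and 6 days of growth for all groups and no doses. Butyrate blocks the enzymes that take acetyl groups off histones. DZNep acts on S-adenosylhomocysteine hydrolase and thereby restrains methyltransferases, among them the Polycomb enzyme EZH2. The agents were given together, so their separate effects cannot be told apart, and untreated HSF-6(S9) cells were not analysed here. Separate cultures for the 3 arrays in a group are not stated in the labels, so p-values reflect only how these samples varied, which may be technical spread.

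The trophoblast is the outer cell layer of the early embryo that builds the placenta. In the mouse CDX2 and ELF5 set up this lineage. In human trophoblast GATA2, GATA3, TFAP2A and TFAP2C act together, and human embryonic stem cells exposed to BMP switch on these genes with HAND1 and MSX2. CGA, the common alpha subunit of the glycoprotein hormones, and CYP19A1, the aromatase that makes oestrogens, are products of the hormone-secreting syncytiotrophoblast. GATA3, the AP-2 genes, HAND1 and MSX2 are not restricted to trophoblast: amnion, surface ectoderm and neural crest use several of them too.

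Values below are array signals, a relative brightness on a linear scale, and levels are compared only within 1 probe set. Sums over a marker list are given only to show how it ran across arrays. Array medians ran from 64.8 to 82.9, a range that serves as a yardstick because the deposited table had no detection calls. The third array of each group stood apart by its 18S ribosomal RNA, at 1190, 723 and 2150 where the 6 remaining arrays ran from 316 to 513. Results were therefore also computed from the first and second arrays alone. Stem cell identity was checked on 11 genes of a list of 14 that includes NANOG, SOX2 and LIN28A. All 11 passed the filter on low values and 0 were called in any comparison. Of all genes at most 0.533% were called higher and 0.133% lower. The summed signal of the 11 ran from 148008 to 198173 in untreated HSF-6(8), 144286 to 153397 in treated HSF-6(8) and 133452 to 223222 in treated HSF-6(S9).

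The promoters of the regulators are shown because the members code for factors whose recognition letters can be looked for in each other's promoters. RefSeq windows of GRCh38.p14 were matched for 9 of the 10 genes, without TFAP2C, and the 250 bases before the annotated start were searched on both strands. The AP-2 letters were GCCNNNGGC, which read alike on both strands, and the GATA letters were AGATAA or TGATAA. Capitals mark these matches, which did not overlap each other in the windows below.
GATA3, chr10:8045083-8045332, plus strand: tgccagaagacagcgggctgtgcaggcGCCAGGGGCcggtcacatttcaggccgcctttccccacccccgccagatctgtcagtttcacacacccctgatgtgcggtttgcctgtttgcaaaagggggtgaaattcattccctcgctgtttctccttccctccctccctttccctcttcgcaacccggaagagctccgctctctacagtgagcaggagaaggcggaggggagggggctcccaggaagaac
GATA2, chr3:128493202-128493451, minus strand: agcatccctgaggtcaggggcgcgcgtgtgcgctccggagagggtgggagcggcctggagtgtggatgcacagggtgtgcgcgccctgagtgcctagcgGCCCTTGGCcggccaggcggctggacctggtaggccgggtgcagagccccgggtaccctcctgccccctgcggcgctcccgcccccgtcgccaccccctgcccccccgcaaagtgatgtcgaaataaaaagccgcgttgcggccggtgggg
HAND1, chr5:154478228-154478477, minus strand: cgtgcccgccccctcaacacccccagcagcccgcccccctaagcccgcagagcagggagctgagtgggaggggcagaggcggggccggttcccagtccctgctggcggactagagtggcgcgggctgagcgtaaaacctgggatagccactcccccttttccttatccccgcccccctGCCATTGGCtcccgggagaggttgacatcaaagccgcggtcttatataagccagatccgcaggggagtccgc
CDX2, chr13:27969316-27969565, minus strand: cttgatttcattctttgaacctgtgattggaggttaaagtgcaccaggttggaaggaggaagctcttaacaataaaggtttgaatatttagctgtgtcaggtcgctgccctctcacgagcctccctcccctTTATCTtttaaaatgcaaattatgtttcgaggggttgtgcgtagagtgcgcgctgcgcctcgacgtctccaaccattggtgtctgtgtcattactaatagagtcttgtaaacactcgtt
CGA, chr6:87095107-87095356, minus strand: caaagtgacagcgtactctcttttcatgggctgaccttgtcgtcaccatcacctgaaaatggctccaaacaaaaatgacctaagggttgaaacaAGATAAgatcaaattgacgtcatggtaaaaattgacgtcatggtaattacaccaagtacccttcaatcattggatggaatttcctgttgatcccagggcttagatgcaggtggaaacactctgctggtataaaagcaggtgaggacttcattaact

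The AP-2 letters occurred in 3 of the 9 windows, those of GATA3, GATA2 and HAND1, and in 24.2% of 15843 protein-coding promoters. In GATA3 the match began 223 bases before the start. The GATA letters occurred in 2 of the 9 windows, those of CDX2 and CGA, against 10.9% of promoters. The match in CGA began 156 bases before the start. Letters for CDX factors (TTTATG) and a bHLH E-box (CAGATG) were found in 0 of the 9 windows, against 7.35% and 9.84% of promoters. CpG dinucleotides, the main sites of DNA methylation, numbered 11 in the GATA3 window, 24 in that of GATA2 and 16 in that of HAND1. The CYP19A1 window had 1, and the median over all promoters was 17. These matches describe the letters of a window and show no binding.

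GATA3, a zinc finger transcription factor of trophoblast, T cells and ectoderm, was the member with the clearest pattern. Its brightest probe set, 209604_s_at, gave 179, 126 and 154 on the untreated HSF-6(8) arrays and 661, 809 and 758 on the treated HSF-6(8) arrays. The treated HSF-6(S9) arrays gave 684, 631 and 977. All 6 treated arrays lay above all 3 untreated ones, and the treated sublines overlapped. The means were 153 ± 26.2, 743 ± 75.2 and 764 ± 187 (SD, n = 3 arrays each), so the treated mean of HSF-6(8) was 4.86 times the untreated one. With 16 added to each value before taking log2, as for all differences below, this was a log2 difference of 2.17 ± 0.22 (SE). It was 2.16 without the third treated HSF-6(8) array and 2.17 from the first and second arrays alone.

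**Figure D1:**
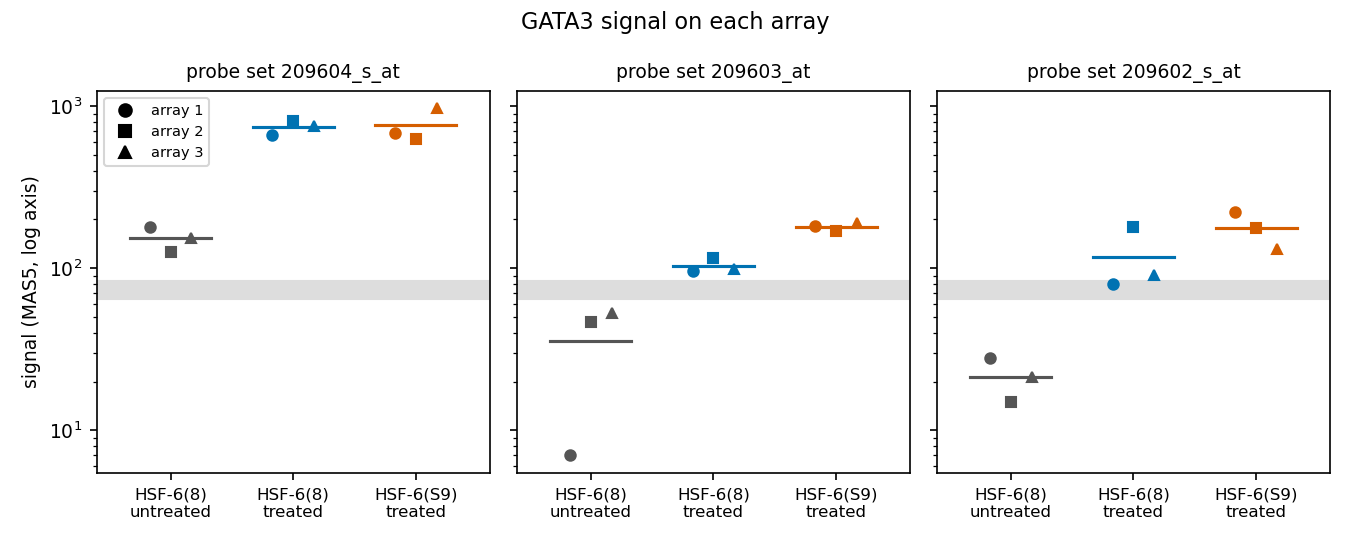
Signal of the 3 GATA3 probe sets on each of the 9 arrays, on a log axis. Symbols are the first, the second and the third array of a group, bars are group means of 3 arrays and the grey band is the range of array medians, 64.8 to 82.9. Each probe set had all 6 treated arrays above all 3 untreated arrays.

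Both other GATA3 probe sets were dimmer and ordered the untreated and treated groups in the same way. Probe set 209603_at gave 7, 46.9 and 52.8 in untreated cells, 96.1, 115 and 98.6 in treated HSF-6(8) and 182, 171 and 189 in treated HSF-6(S9). Its 3 groups did not overlap, with HSF-6(S9) highest. Probe set 209602_s_at gave 27.8, 15.0 and 21.3 in untreated cells, 80.4, 181 and 91.2 in treated HSF-6(8) and 224, 178 and 131 in treated HSF-6(S9). Here the treated sublines overlapped. In untreated cells both probe sets lay below the array medians, so the log2 differences of 1.36 ± 0.37 and 1.78 ± 0.31 between treated and untreated HSF-6(8) depend on the number added.

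GATA2, the close relative of GATA3 that shares its DNA-binding letters, had probe sets that differed from each other. Probe set 207954_at gave 136, 92.6 and 120 in untreated cells, 209, 181 and 237 in treated HSF-6(8) and 149, 91.2 and 155 in treated HSF-6(S9). Treated HSF-6(8) lay above both other groups without overlap, and treated HSF-6(S9) overlapped the untreated arrays. The treated HSF-6(8) mean was 1.80 times the untreated mean, a log2 difference of 0.77 ± 0.24. Probe set 209710_at did not show this order, with means of 112 ± 22.5, 90.4 ± 36.3 and 94.2 ± 19.4 (SD, n = 3). The dimmest, 210358_x_at, had means of 69.7, 66.0 and 62.7 and did not pass the filter on low values.

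The AP-2 genes differed in level pattern. TFAP2A, which codes for AP-2 alpha, a factor of trophoblast, surface ectoderm and neural crest, gave 485, 523 and 248 on the untreated arrays with probe set 204653_at. Treated HSF-6(8) gave 1343, 585 and 305, which overlapped the untreated range. Treated HSF-6(S9) gave 1395, 664 and 1201, all above the untreated arrays. The third array was the lowest of its group in untreated and treated HSF-6(8) but not in HSF-6(S9). The log2 difference of treated and untreated HSF-6(8) was 0.63 ± 0.52, and 1.12 without the third treated array. Probe set 204654_s_at had means of 57.6, 67.9 and 88.3 with overlapping groups, and 210669_at stayed below the array median on all 9 arrays.

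TFAP2C, which codes for AP-2 gamma and is active in embryonic stem cells as well as trophoblast, was bright in every group. Probe set 205286_at gave 4438, 3733 and 3368 in untreated cells and 3568, 2842 and 2793 in treated HSF-6(8). Treated HSF-6(S9) gave 3325, 3189 and 2447. The untreated mean was the highest, 3846 ± 544 against 3067 ± 434 and 2987 ± 472 (SD, n = 3), and untreated and treated HSF-6(8) overlapped. Probe set 205287_s_at had means of 388, 402 and 282. Its low HSF-6(S9) mean came from the third array, at 108 against 383 and 356.

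HAND1 and MSX2, transcription factors that BMP switches on in extraembryonic and mesodermal cells, each had a probe set whose treated arrays all lay above the untreated ones. HAND1 had a single probe set, 220138_at, with 67.3, 81.9 and 95.4 in untreated cells and 132, 142 and 133 in treated HSF-6(8). Treated HSF-6(S9) gave 112, 111 and 248. All treated arrays lay above the untreated ones, and the third HSF-6(S9) array stood well above the first and second. The log2 difference of treated and untreated HSF-6(8) was 0.65 ± 0.29.

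MSX2, a homeobox gene, was represented by 3 probe sets. The brightest, 210319_x_at, gave 53.0, 63.7 and 47.7 in untreated cells, 216, 122 and 181 in treated HSF-6(8) and 207, 108 and 431 in treated HSF-6(S9). All treated arrays were above the untreated ones, and the ending of its name marks probes that can also bind other transcripts. The treated HSF-6(8) mean was 3.16 times the untreated one, a log2 difference of 1.39 ± 0.41. All its untreated arrays lay below their array medians, so this difference depends on the number added. Probe set 205555_s_at gave less, 80.9 ± 30.7 against 119 ± 22.1 (SD, n = 3) with overlapping arrays. Probe set 205556_at stayed below the array median throughout.

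CDX2 and ELF5, the factors that define trophoblast stem cells in the mouse, were not above the array median on any array. The CDX2 probe sets ran from 1.27 to 22.6 and the ELF5 probe sets from 2.20 to 43.0 over the 9 arrays. Neither gene had groups that stood apart. At such signals the table cannot show whether either gene was transcribed.

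The hormone genes of the syncytiotrophoblast showed no common pattern. CGA probe set 204637_at gave 38.3, 27.5 and 4.85 in untreated cells, 3.53, 121 and 105 in treated HSF-6(8) and 104, 36.9 and 6.62 in treated HSF-6(S9). High and low arrays occurred within each treated group. It passed the filter on low values with exactly 3 arrays above their medians. The other CGA probe set and all 7 of CYP19A1 did not pass. CYP19A1 signals ran from 0.52 to 87.9, with 1 untreated array of 240705_at above its median.

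**Figure D2:**
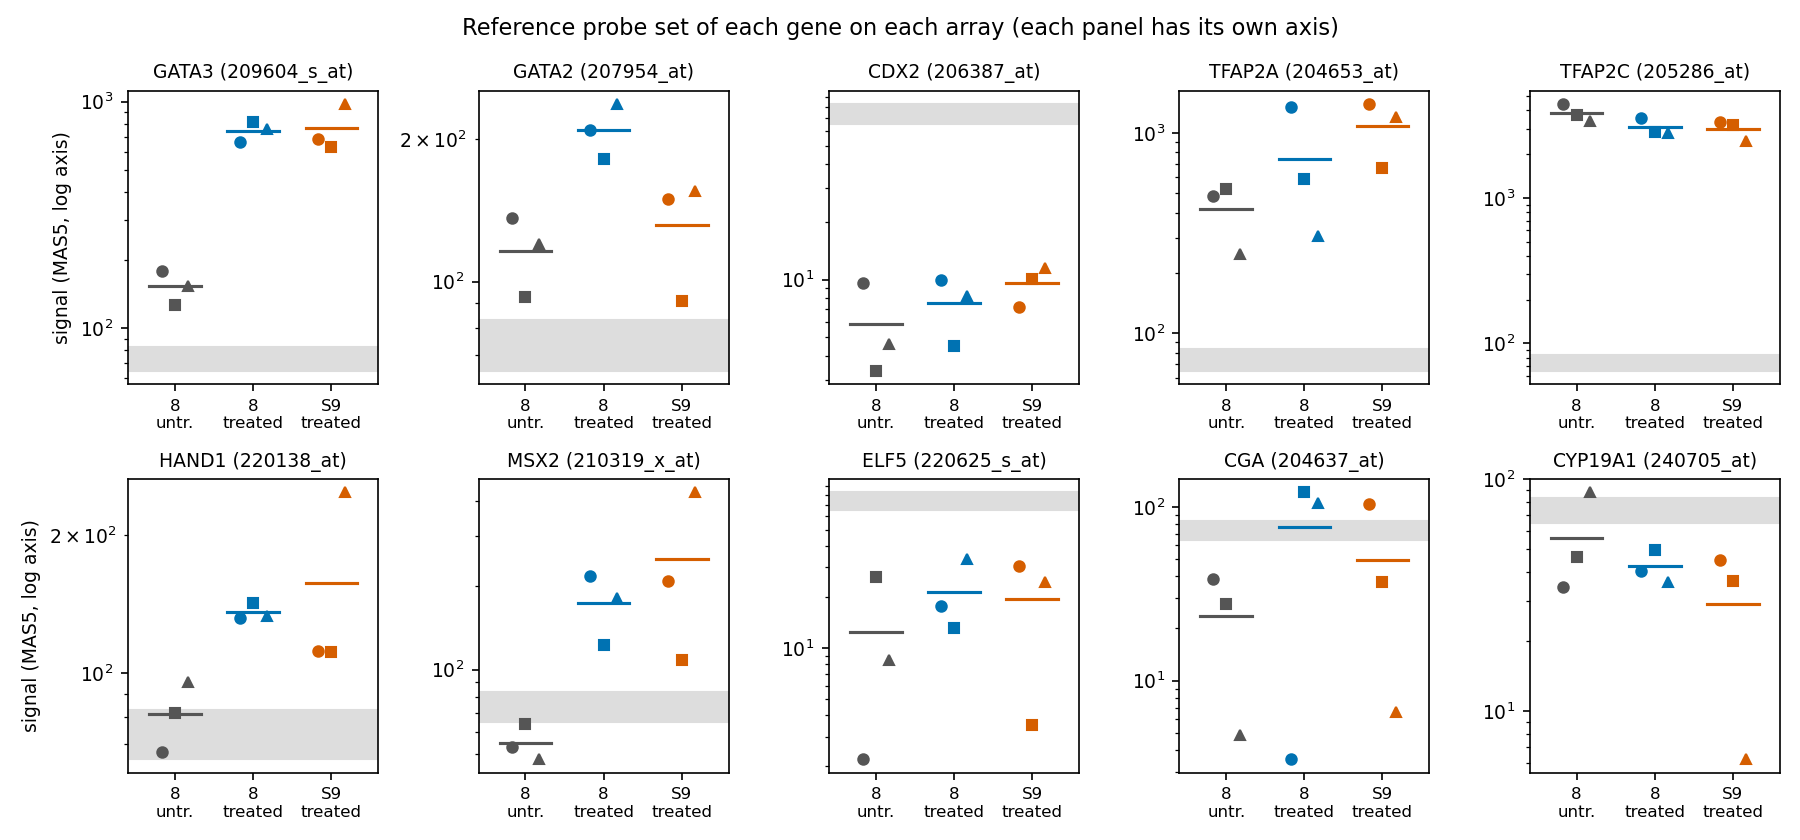
Signal of 1 probe set per gene on each of the 9 arrays, on log axes that differ between panels. Circles, squares and triangles are the first, the second and the third array of a group, bars are means of 3 arrays and the grey band is the range of array medians. GATA3, HAND1 and MSX2 have all 6 treated arrays above the untreated ones, and CDX2 and ELF5 lie below the band in every group.

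In all, 13 of the 28 probe sets passed the filter on low values, which asked for 3 of 9 arrays above their own median, and these belonged to 7 genes. CDX2, ELF5 and CYP19A1 had none. A gene was called where 1 of its probe sets had a limma adjusted p under 0.05 and at least a 2-fold difference. Between treated and untreated HSF-6(8), genes with a probe set called higher were 0.473% of 13519 genes, and 0.0444% had one called lower. No call is given for the 10 genes here, since their choice used that contrast. Of the probe sets 80 (0.273%) were called higher and 8 (0.0273%) lower. With the prime marks of the array titles as a replicate block, the probe sets called numbered 148 in place of 88. Of all 28 probe sets, 7 were higher in treated HSF-6(8) without overlap, against 7.34% of all probe sets, and 0 were lower, against 5.30%. The 7 were the 3 of GATA3, 1 each of GATA2, HAND1 and MSX2, and the dim 239460_at of CYP19A1. With 1 probe set a gene, the median log2 difference of the 10 genes was 0.64, against 0.01 for all genes.

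Treated HSF-6(S9) and untreated HSF-6(8) were compared by test, a contrast in which subline and treatment cannot be told apart and which shares the untreated arrays with the one above. GATA3 was called in it. Its choice had used these same untreated arrays, so its p-values here are not independent of that choice. Probe set 209604_s_at was higher by a log2 difference of 2.19 ± 0.22 (limma adjusted p = 0.00441; 0.0556 from the first and second arrays alone, with 2.02), and 209602_s_at by 2.36 ± 0.31 (adjusted p = 0.0159). The latter was not called without the second or the third untreated array or without the first or the second treated HSF-6(S9) array (adjusted p = 0.0842, 0.0651, 0.0671 and 0.0653), nor from the first and second arrays alone (0.0986). Probe set 209603_at, at 2.08 ± 0.37, had an adjusted p of 0.0600, and 0.0405 with the replicate block. Both 209602_s_at and 209603_at passed the filter through treated arrays alone, so their differences depend on the number added. In this contrast 0.533% of genes had a probe set called higher and 0.133% lower. Of the probe sets 92 (0.314%) were called higher and 22 (0.0750%) lower, 114 in all, or 233 with the replicate block.

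The other 6 testable members were not called between treated HSF-6(S9) and untreated HSF-6(8). MSX2 probe set 210319_x_at had a log2 difference of 1.71 ± 0.41 (limma adjusted p = 0.147), and 1.24 without the third HSF-6(S9) array. Both this probe set and that of CGA passed the filter through treated arrays alone, so their differences depend on the number added. TFAP2A had 1.35 ± 0.52 (0.370) and HAND1 0.75 ± 0.29 (0.363), the latter 0.40 without that array. Here GATA2 stood at 0.14 ± 0.24 (0.886), TFAP2C at -0.37 ± 0.20 (0.563) and CGA at 0.52 ± 0.82 (0.879). Without overlap, 6 of the 28 probe sets were higher, against 6.84% of all probe sets. Those were the 3 of GATA3 and 1 each of TFAP2A, HAND1 and MSX2. Another 2 of the 28, or 7.14%, were lower, close to the 7.21% of all probe sets: TFAP2C 205286_at and the dim CGA 233615_at.

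**Figure D3:**
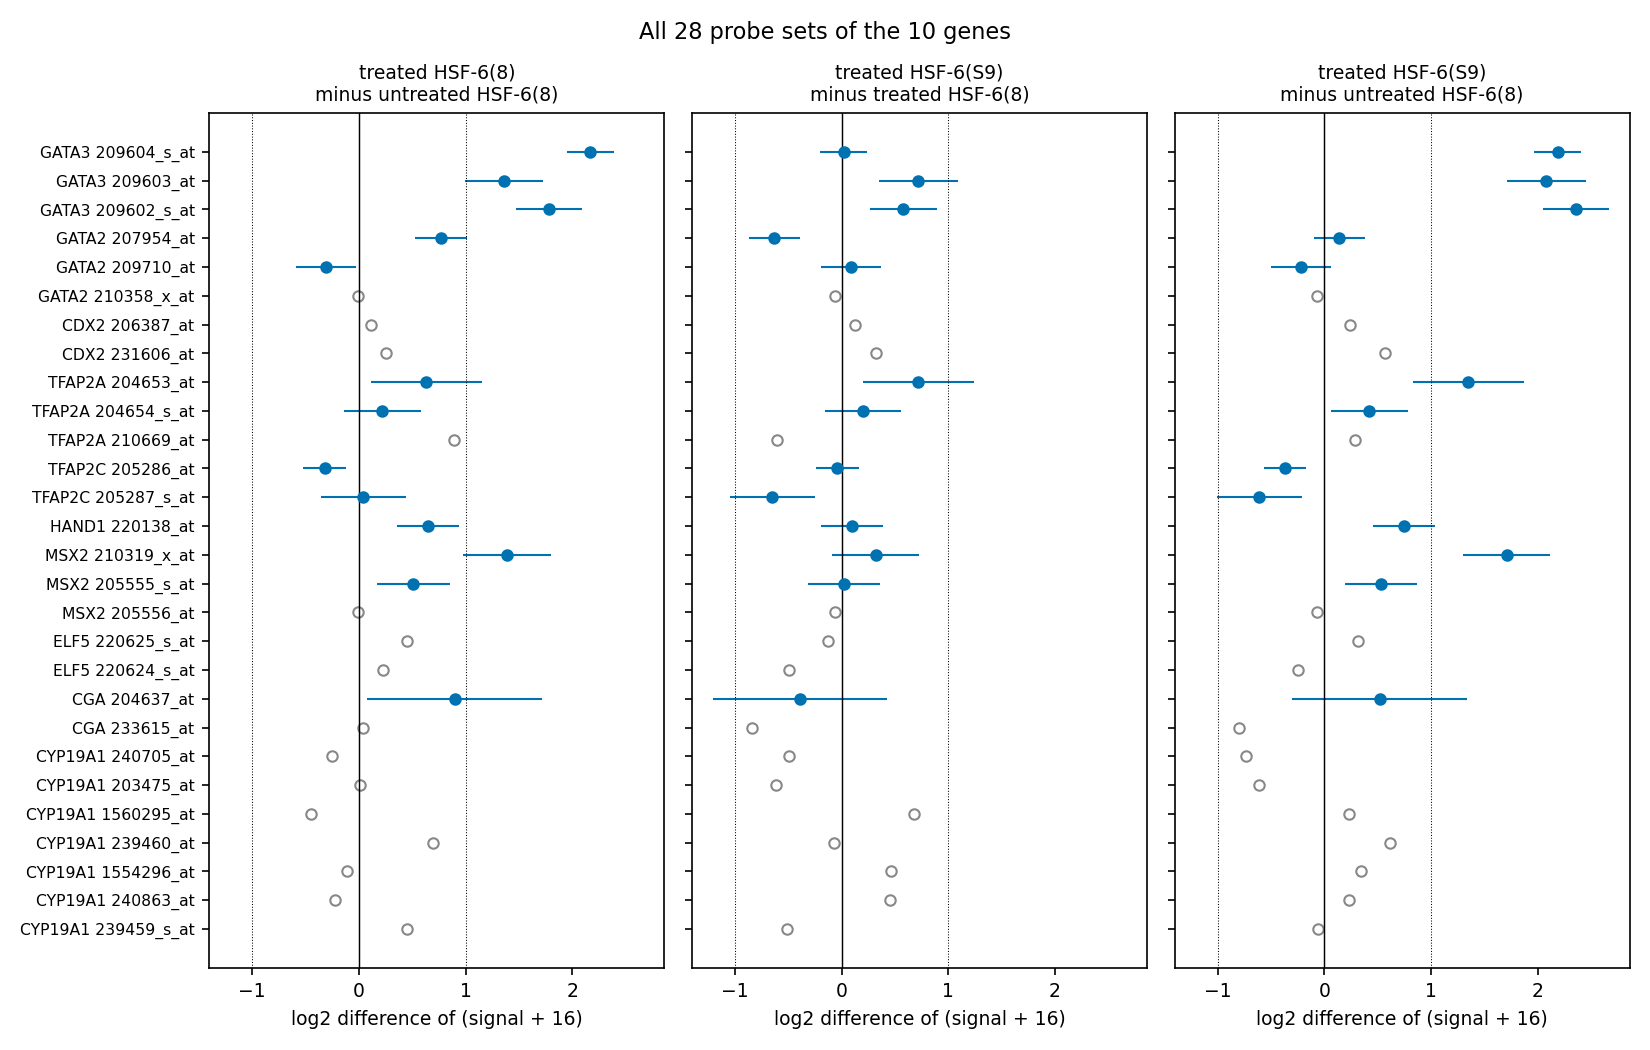
Log2 difference of signal plus 16 for all 28 probe sets in the 3 comparisons. Filled points with bars are probe sets that passed the filter, with the SE of the limma fit, open points did not pass, and dotted lines mark 2-fold. The 3 GATA3 probe sets lie right of the 2-fold line in both comparisons with untreated cells.

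Between the treated sublines, treated HSF-6(S9) against treated HSF-6(8), 0 of 29328 probe sets were called by limma, 0% in each direction, and 712 had an unadjusted p under 0.05. The GATA3 probe sets had log2 differences of 0.02 for 209604_s_at (95% interval -0.48 to 0.51), 0.72 for 209603_at (-0.11 to 1.56) and 0.58 for 209602_s_at (-0.11 to 1.27), all with a limma adjusted p of 1. Of the 13 member probe sets tested, 1 had an unadjusted p under 0.05: GATA2 207954_at, lower in HSF-6(S9) by a log2 difference of -0.63 (-1.16 to -0.10; limma adjusted p = 1). It was also the 1 of 28 that was lower without overlap, against 5.04% of all probe sets, and GATA3 209603_at was the 1 that was higher, against 2.89%. The intervals of TFAP2A (-0.46 to 1.89), MSX2 (-0.61 to 1.25) and CGA (-2.23 to 1.45) include 2-fold differences, so similar levels were not shown for these genes. The treated HSF-6(8) arrays used here also entered the choice of GATA3.

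A wider list of 38 trophoblast genes without the 10 members was examined next, with factors such as TEAD4, GCM1 and PPARG and products such as PSG1 and HSD3B1. Of its genes 37 were measured, 17 passed the filter on low values, and 0 were called in any of the 3 comparisons, where the shares of genes called higher were 0.473%, 0% and 0.533%. The median log2 difference of the 37 was 0.32 between treated and untreated HSF-6(8), -0.08 between the treated sublines and 0.21 between treated HSF-6(S9) and untreated HSF-6(8), with 0.01, -0.02 and -0.01 for all genes. Of the 37, 28 lay above 0 in the first comparison and 27 in the last. Their summed signal, in which bright genes such as PEG10 and HLA-G weigh most, was 12355 to 13735 in untreated cells, 16778 to 17480 in treated HSF-6(8) and 15981 to 18359 in treated HSF-6(S9). EPAS1, which codes for a hypoxia factor of the HIF family, had 1.63 ± 0.63 between treated and untreated HSF-6(8) (limma adjusted p = 0.552). LRP2, which codes for the endocytic receptor megalin, had the largest difference of the last comparison among genes that passed the filter, at 2.23 ± 0.59 (limma adjusted p = 0.181), from 115 ± 36.2 to 625 ± 266 (SD, n = 3), followed by the integrin gene ITGA5 at 1.11 ± 0.32 (0.221). Never above the array median were 14 of the 37, among them the fusion gene ERVFRD-1, its regulator GCM1, HSD3B1, PSG1 and the placental hormone gene CSH1.

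Amnion genes had 9 measured of 10, with 7 that passed the filter and 0 called in any comparison. The shares of all genes called higher were 0.473%, 0% and 0.533%. The median was 0.26 between treated and untreated HSF-6(8), with 6 of the 9 above 0, and 0.17 between treated HSF-6(S9) and untreated HSF-6(8), with 5 above 0. In the former IGFBP3, which codes for a binding protein of insulin-like growth factors, had 1.36 ± 0.28 (limma adjusted p = 0.131). In the latter TBX3 had 1.21 ± 0.33 (limma adjusted p = 0.188) and ISL1, a factor of amnion and heart progenitors, 1.19 ± 0.44 (0.339). ISL1 passed the filter through treated arrays alone, so its difference depends on the number added. The lowest value of the list in that comparison was -0.64 for WNT6, and GABRP had -0.16. VTCN1 was below the array median throughout.

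Relatives of the member factors were 19 genes, of which 12 passed the filter and 0 were called in any comparison. The shares of all genes called higher were 0.473%, 0% and 0.533%, so a count of 0 among so few genes says little. GATA6 and GATA4, which are also on the endoderm list, had the largest differences between treated and untreated HSF-6(8). With its brightest probe set GATA6 gave 74.8, 59.9 and 80.0 in untreated cells and 281, 471 and 2541 in treated HSF-6(8). Treated HSF-6(S9) gave 276, 290 and 327. The third treated HSF-6(8) array thus stood far above the others for this probe set. The GATA3 signal of that array, 758, lay between those of the first and second arrays. Another GATA6 probe set that passed the filter did not show this rise. Its log2 differences were -0.21 ± 0.46 between treated and untreated HSF-6(8) and -0.05 ± 0.46 between treated HSF-6(S9) and untreated HSF-6(8). GATA4 differed by 1.61 ± 0.39 between treated and untreated HSF-6(8) (limma adjusted p = 0.213). MSX1, the relative of MSX2, had 1.18 ± 0.33 (0.208) between treated HSF-6(S9) and untreated HSF-6(8), while its other probe set gave -0.18.

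BMP acts upstream of GATA3, HAND1 and MSX2 in stem cells. The list of BMP signalling genes held ligands, receptors and SMAD factors, but also inhibitors and the ID targets. Its median is therefore no measure of BMP activity. Of its 23 genes 21 were measured and 19 passed the filter. Their median log2 difference was 0.09 between treated and untreated HSF-6(8), with 13 of the 21 above 0. Between treated HSF-6(S9) and untreated HSF-6(8) it was 0.19, with 14 above 0. ID3, a direct BMP target, was the 1 gene called. It was called between treated HSF-6(S9) and untreated HSF-6(8), where 0.533% of all genes were called higher. It gave 1530, 1820 and 1398 in untreated cells, 3204, 3390 and 4177 in treated HSF-6(8) and 4213, 3939 and 5625 in treated HSF-6(S9), without overlap of untreated and treated arrays. The log2 difference was 1.52 ± 0.21 (limma adjusted p = 0.0225). The call held without the third treated HSF-6(8) array or the second treated HSF-6(S9) array and was lost without any 1 of the other 7, with adjusted p up to 0.104. The ligand gene BMP2 had 300, 307 and 382 in untreated cells and 1019, 1151 and 2543 in treated HSF-6(8), a log2 difference of 2.08 ± 0.39 (limma adjusted p = 0.0946). BMP4, the ligand most used to make trophoblast from stem cells, stood at -0.12 ± 0.27 (0.999). Genes for secreted BMP inhibitors stood above 0 in the same comparison. GREM1 had 1.72 ± 0.84 (limma adjusted p = 0.73), FST 1.01 ± 0.30 (0.347) and CHRD 0.50 ± 0.23 (0.684). NOG, which did not pass the filter, had 1.02. The inhibitor genes SMAD6, SMAD7 and BAMBI had 0.01, -0.20 and -0.06. What this meant for BMP signalling was not tested. The other ID genes differed from ID3. Against untreated cells ID1 had -0.66 in HSF-6(8) and -0.24 in HSF-6(S9), ID2 0.38 and 0.80, and ID4 -0.23 and 0.19.

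Marker lists of other lineages were examined because several of them use the same factors. Of 17 surface ectoderm and neural crest genes 15 were measured, 9 passed the filter and 2 were called. Both were higher in treated HSF-6(S9) than in untreated HSF-6(8), where 0.533% of all genes were called higher. The 2 were PAX3, a neural crest factor (3.34 ± 0.52, limma adjusted p = 0.0377), and EYA1, a placode factor (2.67 ± 0.41, 0.0349). All their untreated arrays lay below the array medians, with means of 36.3 for PAX3 and 10.2 for EYA1. Both passed the filter through treated arrays alone, so these differences depend on the number added. Another PAX3 probe set gave -0.26. With single arrays left out, the PAX3 call held only without the second treated HSF-6(S9) array, and the EYA1 call only without treated HSF-6(8) array 2 or array 3. Without other arrays the adjusted p reached 0.124 for both. The median log2 difference of the 15 was 0.65 between treated and untreated HSF-6(8), with 12 above 0. Between treated HSF-6(S9) and untreated HSF-6(8) it was 0.71, with 13 above 0. KRT5, which did not pass the filter, had the lowest values of the list, -0.45 and -0.35 in these comparisons. SOX10 had 0.16 and 0.07. The list's summed signal was 16317 to 17428 in untreated cells, 20649 to 34260 in treated HSF-6(8) and 20888 to 34732 in treated HSF-6(S9). Most of this sum came from KRT18, KRT8 and KRT19, keratins of simple epithelia in general (untreated means 9350, 3622 and 2940), and its high ends from KRT18 at 17257 and 16466 and KRT8 at 10687 and 8276 on 1 array of each treated group. Its defining epidermal genes KRT5 and KRT14 were never above the array median. The part of these cells in the GATA3 signal was not tested. In bulk RNA more cells of a type and more RNA per cell cannot be told apart.

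Endoderm genes had a median log2 difference of 1.64 over 10 measured genes between treated and untreated HSF-6(8). Of the 9 that passed the filter 0 were called, where 0.473% of all genes were called higher. Their summed signal was 1010 to 1493 in untreated cells, 1800 to 14369 in treated HSF-6(8) and 1842 to 2314 in treated HSF-6(S9), and the highest value was that of the third treated HSF-6(8) array. The first and second treated HSF-6(8) arrays had sums of 1800 and 2299, also above the untreated range. Mesoderm and primitive streak genes had a median of 0.54 over 12, neuroectoderm genes 0.23 over 11 and fibroblast and stromal genes 0.44 over 15 in the same comparison. Among these FN1, which codes for fibronectin, was called higher with 1 of its 7 probe sets, in treated HSF-6(8) (1.61 ± 0.22, limma adjusted p = 0.0212) and in treated HSF-6(S9) (1.41 ± 0.22, 0.0382) against untreated HSF-6(8). Of all genes 0.473% and 0.533% were called higher in these comparisons. The first FN1 call was lost without any 1 untreated array or the second treated HSF-6(8) array (adjusted p up to 0.0988). The second held only without the third treated HSF-6(8) array (up to 0.139 without others). The summed stromal signal was 31397 to 41124, 34801 to 68044 and 35206 to 47241 in the 3 groups in the order above, and the mesoderm sum 1378 to 2001, 1871 to 8381 and 1504 to 2302. The neuroectoderm sum was 25434 to 29758, 29950 to 34316 and 29955 to 41329. Whether these cells carried GATA3 was not tested.

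**Figure D4:**
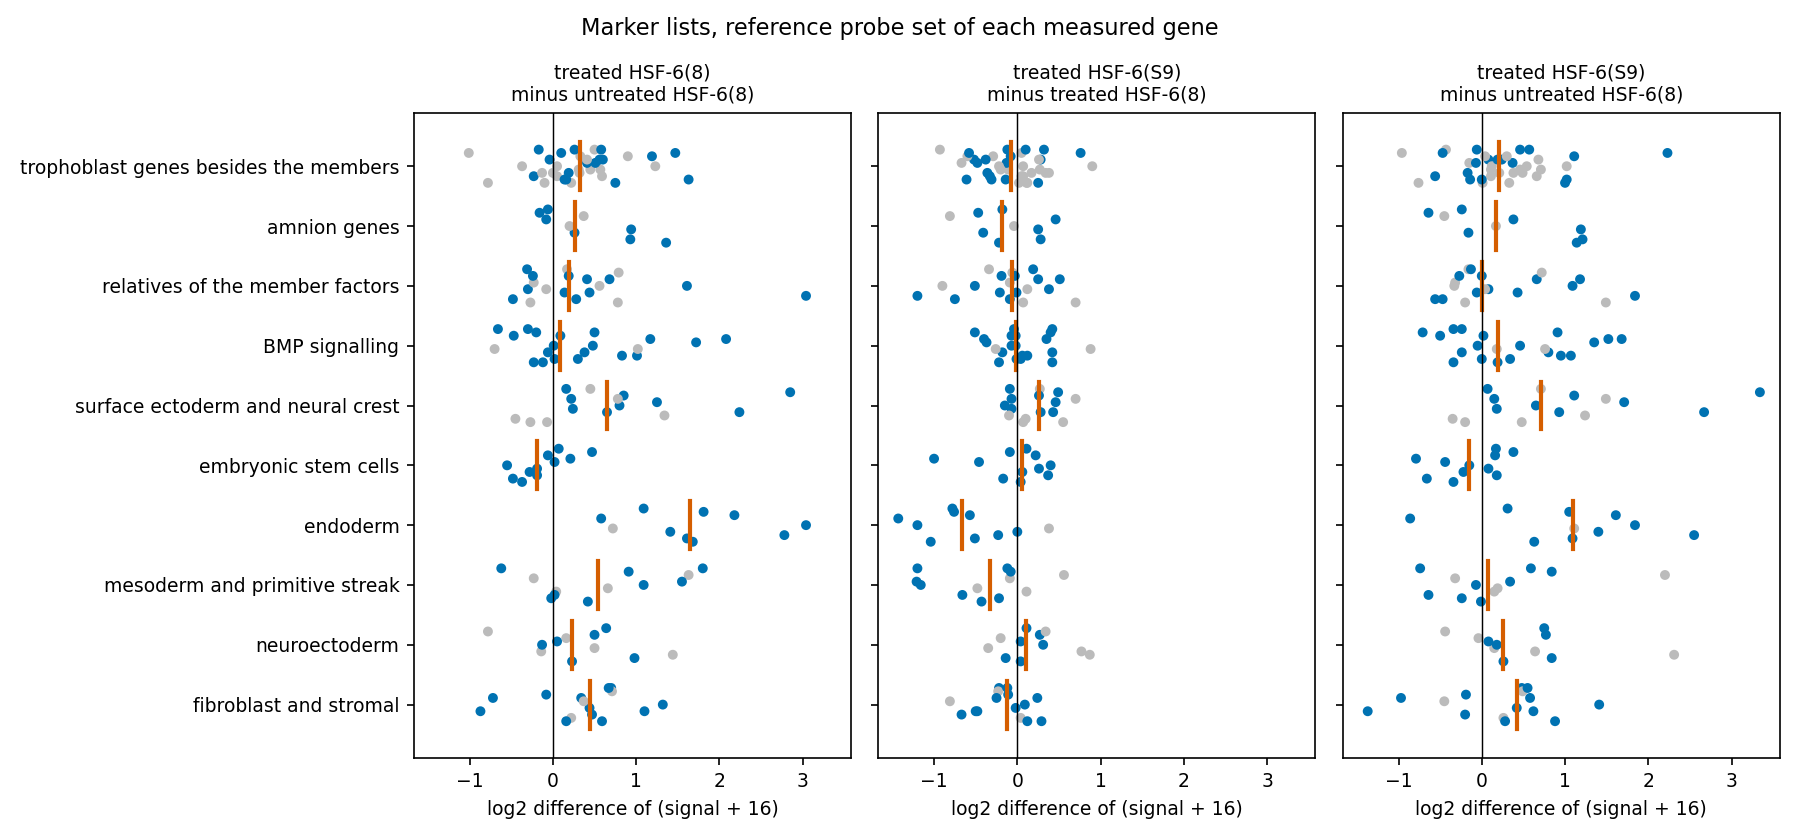
Log2 difference of signal plus 16 for each measured gene of 10 marker lists in the 3 comparisons, with 1 probe set a gene. Blue points passed the filter on low values, grey points did not, and the orange bar is the list's median. The trophoblast list without the members has medians of 0.32, -0.08 and 0.21, below the endoderm medians of 1.64 and 1.10 in both comparisons with untreated cells.

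The genes whose pattern over the 9 arrays was most like that of GATA3 were none of the listed trophoblast genes. By Pearson's r of log2 signal plus 16, among 13518 other genes, these were the zinc finger genes ZNF682 (r = 0.996) and ZNF626 (0.994), the imprinted gene NNAT (0.994), ENPP2, which codes for autotaxin (0.989), and ASTE1 (0.989). The 9 points share 3 groups, so a gene with a similar step between untreated and treated arrays reaches a high r, and no p is given. ENPP2, for example, averaged 58.9 ± 5.82 in untreated cells, 567 ± 87.0 in treated HSF-6(8) and 537 ± 101 in treated HSF-6(S9) (SD, n = 3). Among the members, r with GATA3 was 0.86 for MSX2, 0.80 for HAND1, 0.58 for GATA2, 0.54 for TFAP2A, 0.30 for CGA and -0.74 for TFAP2C.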

How the data were processed

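Gene expression of 9 samples was read from the authors' deposited table, which holds a linear signal intensity for each probe set. Per the submitters' processing notes it was made with Affymetrix Expression Console and MAS5, with no version. MAS5 scales each array, and a mean trimmed by 2% at either end was 500.061 to 500.076 on every array. Probe sets were named from GEO's platform annotation, updated by Entrez number through RefSeq: 41091 had a single gene, 1801 several and 11721 none, and 62 controls were left out.

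Differences were computed on log2(signal + 16) over the 29328 probe sets with at least 3 of 9 arrays above their own median, with 1 model over all arrays in limma 3.58.1 (R 4.3.3; 6 residual and 3.20 prior degrees of freedom). Two-sided p-values were adjusted over these probe sets (Benjamini-Hochberg). The steps were tested on simulated data. The number of arrays limits the precision. The 1 probe set that stood for a gene was its brightest one that passed the filter. From the marker lists, genes were named if called without overlap of groups (up to 4), or else from the 2 largest differences. The BMP inhibitors besides GREM1 and the amnion genes WNT6 and GABRP were chosen in view of their values. BMP4, the other ID genes, NANOG, VTCN1, FN1, SOX10, PEG10, HLA-G and the keratins were picked after their values were seen. So were the second MSX1, PAX3 and GATA6 probe sets and the genes below the medians. Members and lists were chosen with earlier results of these data known. The prime marks of the titles were taken to pair arrays: with the group means subtracted, same-marked arrays of different groups had r from 0.12 to 0.59. Only the third arrays stood apart by mark: first and second arrays of different marks had r from 0.06 to 0.38. The alternatives were other added numbers, filters, scaling, variance models and array sets.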

Additional observations from a re-analysis of the deposited data

How the results depend on the processing

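GATA3 was called between treated HSF-6(S9) and untreated HSF-6(8) under 18 of 19 alternatives, with a log2 difference of 1.92 to 2.32 and an adjusted p of 0.00122 to 0.0556. The exception was the first and second arrays alone, with 0 member genes called, which leaves fewer arrays. The choice of GATA3 had used the untreated arrays of this contrast, so these alternatives are no independent support. The count of 88 probe sets between treated and untreated HSF-6(8) was 53 with no filter on low values, 48 with the 75th percentile filter, 148 with the replicate block, 46 from the first and second arrays and 54 with the groups compared alone. It was 42 to 111 with 1 array left out. The 114 between treated HSF-6(S9) and untreated HSF-6(8) became 59, 76, 233, 47 and 62 in the same order, and 36 to 146. Between the treated sublines the count was 1 in place of 0 with 1 added, with quantile normalization and with 1 probe set a gene. The replicate block changed no other member call. From the first and second arrays the differences between the treated sublines changed sign for GATA3 (-0.15), TFAP2C (0.03), HAND1 (-0.26), MSX2 (-0.11) and CGA (0.63); none was called. With 1 array left out these ran from -0.17 to 0.14, -0.12 to 0.09, -0.25 to 0.28, -0.15 to 0.77 and -1.29 to 0.22. CGA ran from -0.08 to 1.12 between treated HSF-6(S9) and untreated HSF-6(8). The cause of these shifts was not tested. With 64 added, EYA1 was not called (1.55, adjusted p = 0.0729) and GATA3 209603_at was (1.33, 0.0259). The ID3, PAX3 and EYA1 calls were lost with no filter on low values (adjusted p = 0.0607, 0.0692 and 0.0690) and from the first and second arrays alone (0.0968, 0.178 and 0.0668). Both FN1 calls were lost too (0.0603 and 0.0926, then 0.0987 and 0.100). With the groups compared alone, ID3 (0.0681), PAX3 (0.0999) and FN1 (0.0718 and 0.0585) were not called. Signals below the array medians have no reliable fold.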
